A study of Homo sapiens with 12 samples.

Results

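The nucleolar ribosome biogenesis factors are proteins that make the rRNA precursor and turn it into ribosomal subunits, and 52 of their genes were listed for this account. A member was taken from the deposited array table when a row named its gene and no other, and where several rows did so the row with the highest mean over the 12 arrays was used. This gave 47 of the 52 genes, among 21214 named rows that were tested. NOP56 and DDX47 were on rows shared with another gene, SNORD56 and APOLD1, and these 2 genes, EBNA1BP2, GNL3 and DDX18 were not analysed here. ESF1 was compared with the other 46 members, and ESF1 had been picked by the study for RT-qPCR on these same arrays, so that its values with the steroids are a description.

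The cells were U87, a human glioblastoma line, and the question was how 2 related steroids and an enzyme inhibitor change their transcripts. The vehicle (V) was DMSO, given as 0.1% for the samples and as 10% in the treatment text, and it was the control of all 3 treatments. Progesterone (P4) and its reduced metabolite allopregnanolone (3α-THP) were each used at 10 nM, and finasteride (F), a steroid-like inhibitor of the 5α-reductase that leads from P4 to 3α-THP, at 100 nM. Each treatment lasted 72 h and was read on 3 arrays of the Affymetrix type Human Gene 1.0 ST, numbered 1 to 3 and described as independent experiments on 1 cell line. Values are the deposited log2 signals of transcript clusters, each the summary of probes placed along a gene. Levels of different members are not compared because their probes differ. Marker levels alone are placed among all clusters, as a rough guide with the same limit.

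Ribosome synthesis begins in the nucleolus, where RNA polymerase I copies the rRNA genes into 1 long precursor. Small nucleolar RNPs mark that precursor for methylation (box C/D, with the methyltransferase fibrillarin) and pseudouridylation (box H/ACA, with dyskerin), while the small subunit processome folds and cuts the part that becomes the small subunit, and a separate set of factors assembles the large one. The pathway uses much of the energy of a dividing cell, its genes are known targets of MYC, which binds the E-box CACGTG, and enlarged nucleoli are a familiar feature of tumour cells. ESF1 is a nucleolar protein of early rRNA processing, first described in yeast, where its loss impairs the maturation of the small subunit rRNA.

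Start sites from RefSeq (GRCh38.p14) are shown first, because many members hold a motif there that was not used to choose them. A window of 250 bases before and 50 bases after the start was held by 38 of the 47 members, 6 of them with several windows. The E-box CACGTG, which reads the same on both strands, was found in 17 of these 38 genes (44.7%) and in 10.9% of 14237 genes on the array. Of its 20 sites in members, 12 lay after the start, with their first base at +4 to +36 (the start is +1). ESF1 is one of the 17. The following stretches, of 30 bases or the 27 that the window holds, show the E-box in capitals in ESF1, in the members that varied most with the replicate number (DDX21 and NOP2), in FBL and PES1, and in 5 small subunit factors (PNO1, UTP20, WDR43, NOP14 and NOL6) whose arrays numbered 2 lay above the mean of the others by 0.31 to 0.50. DDX21, NOP2 and these 5 were picked as the E-box holders with the largest such difference. UTP15 and DKC1 differed by more than these 5 (0.64 and 0.55), and their windows held no E-box.
ESF1 (chr20:13784890-13784919, minus strand): gggtgtgagcccCACGTGaggcttggtagg
DDX21 (chr10:68956604-68956633, plus strand): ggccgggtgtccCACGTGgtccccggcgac
NOP2 (chr12:6568242-6568268, minus strand): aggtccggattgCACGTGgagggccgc
PNO1 (chr2:68157885-68157914, plus strand): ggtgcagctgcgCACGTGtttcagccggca
UTP20 (chr12:101280083-101280112, plus strand): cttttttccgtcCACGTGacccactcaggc
WDR43 (chr2:28894658-28894687, plus strand): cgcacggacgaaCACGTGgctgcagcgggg
NOP14 (chr4:2963374-2963403, minus strand): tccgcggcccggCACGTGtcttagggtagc
NOL6 (chr9:33473894-33473923, minus strand): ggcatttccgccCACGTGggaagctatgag
FBL (chr19:39846356-39846385, minus strand): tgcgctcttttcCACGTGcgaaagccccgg
PES1 (chr22:30591880-30591909, minus strand): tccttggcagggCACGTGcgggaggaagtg

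The 250 bases before the ESF1 start (chr20:13784920-13785169, minus strand) follow, beside those of FBL (chr19:39846380-39846629, minus strand). FBL encodes fibrillarin and had the lowest fold change against V of all members with F. Capitals mark matches to the motifs searched: CCAAT, the CRE half-site TGACG, the NRF1 palindrome (GCGCA followed by its reverse complement) and the ETS core CCGGAA, on either strand.
ESF1: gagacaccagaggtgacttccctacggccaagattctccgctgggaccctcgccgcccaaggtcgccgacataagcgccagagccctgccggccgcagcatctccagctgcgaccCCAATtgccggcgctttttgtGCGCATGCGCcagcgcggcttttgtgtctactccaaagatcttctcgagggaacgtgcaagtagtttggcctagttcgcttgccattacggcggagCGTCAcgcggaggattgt
FBL: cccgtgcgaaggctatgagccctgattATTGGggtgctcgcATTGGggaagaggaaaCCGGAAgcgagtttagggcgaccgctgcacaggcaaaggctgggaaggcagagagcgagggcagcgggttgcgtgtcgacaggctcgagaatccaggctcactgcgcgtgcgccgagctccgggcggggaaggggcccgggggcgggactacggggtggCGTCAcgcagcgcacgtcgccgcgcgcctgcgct

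ESF1 holds CCAAT at -135, the NRF1 palindrome at -114, a CRE half-site at -18 and the E-box at +13. The NRF1 palindrome was in 4 of the 38 members with a window (10.5%; DDX10, DKC1, ESF1 and UTP18) against 2.05% of array genes. The CRE half-site was in 19 members (50%) against 35.1%, and the ETS core in 16 (42.1%) against 27%. The CCAAT box was in 17 members (44.7%), close to the 42.2% of array genes. The full CRE TGACGTCA, which contains the half-site, was in 2 members, DDX10 and RRP1 (5.26%, against 3.1%), and the C/EBP motif TTGCNNAA in 4 (10.5%, against 11.3%), and neither was in the window of ESF1. These are matches of letters and not sites shown to be bound.

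**Figure D1:**
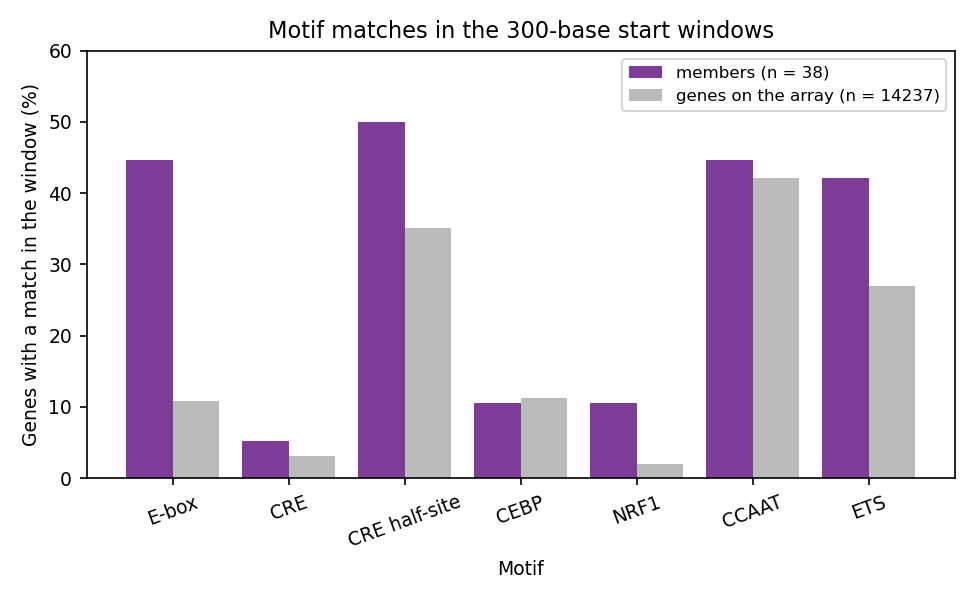
Share of genes (%) with at least 1 match to each motif in the start windows, for 38 members (purple bars) and 14237 genes on the array (grey bars). The E-box stands out at 44.7% against 10.9%, while CCAAT is near equal in both.

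ESF1 was the only member that rose with a steroid by more than 1.5-fold at a p under 0.05 before adjustment (limma). On the V arrays 1 to 3 its log2 value was 5.22, 5.89 and 5.24. With 3α-THP it was 6.37, 6.92 and 6.82, with P4 5.30, 5.74 and 6.23, and with F 6.20, 6.01 and 6.64. All 3α-THP arrays and all F arrays lay above all V arrays, all 3α-THP arrays lay above all P4 arrays, and the P4 arrays ran from the V range into the F range. Such a separation, with the first group higher, was found in 4.02% of all tested clusters for 3α-THP against V, in 3.60% for F against V and in 3.13% for 3α-THP against P4. The order of the means was V (5.45, SD 0.378), P4 (5.76, SD 0.466), F (6.28, SD 0.325) and 3α-THP (6.71, SD 0.291; n = 3 each). Between V and P4 and between F and 3α-THP the arrays overlapped.

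**Figure D2:**
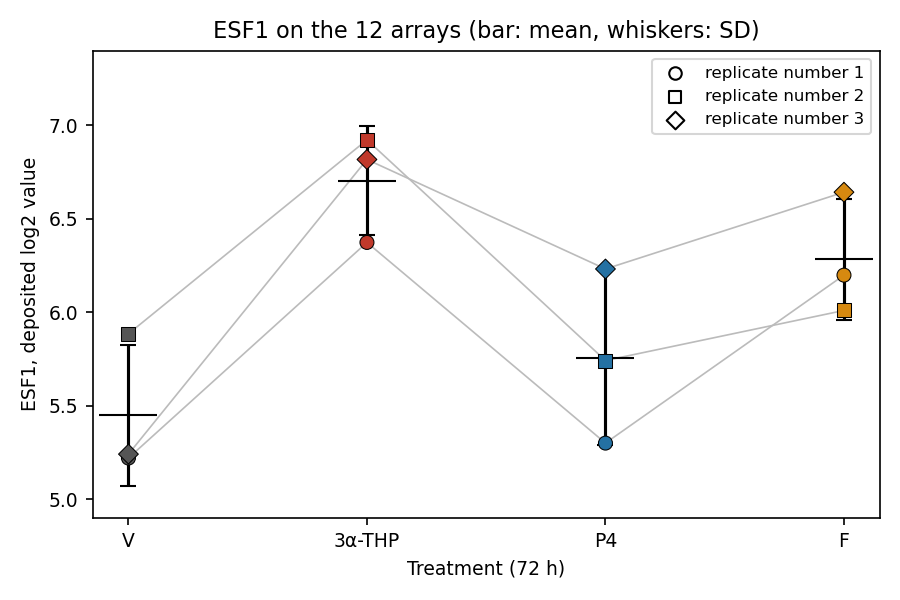
Deposited log2 value of ESF1 on each of the 12 arrays by treatment; symbols give the replicate number, grey lines join arrays with the same number, bars are means and whiskers the SD (n = 3). The 3α-THP arrays lie between 6.37 and 6.92 and the F arrays between 6.01 and 6.64, all above the highest V array at 5.89.

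With 3α-THP the log2 fold change of ESF1 against V was 1.26 (SE 0.249), a 2.39-fold rise, and with F it was 0.84 (SE 0.249), a 1.78-fold rise. Both values passed the threshold used in the study's methods, which asks for more than a 1.5-fold change together with a p under 0.05 before adjustment, and neither passed the adjustment over all tested clusters (limma, adjusted p = 0.376 and 0.911). With P4 the difference was 0.31 (SE 0.249; limma, adjusted p = 1). At the matched dose of 10 nM ESF1 was higher with 3α-THP than with P4 by 0.95 (SE 0.249; limma, adjusted p = 0.999). F, at its higher dose, was not separated from either in this fit, which leaves the replicate number out. The difference was 0.42 for 3α-THP minus F (95% interval -0.12 to 0.96) and -0.53 for P4 minus F (-1.07 to 0.01). With the number as a block, added after the values were seen, the intervals were -0.0018 to 0.84 and -0.95 to -0.10. The one for P4 minus F then left out 0, below a 1.5-fold change (limma, adjusted p = 0.864). Leaving out single arrays takes both differences past the threshold: 3α-THP minus F when 3α-THP array 1 (0.59) or F array 3 (0.60) is dropped, and P4 minus F when P4 array 3 (-0.76) or F array 2 (-0.66) is dropped.

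Set against the V array of the same number, ESF1 was higher by 1.15, 1.04 and 1.58 with 3α-THP and by 0.98, 0.12 and 1.4 with F. With P4 the same differences were 0.08, -0.14 and 0.99, so that with P4 array 3 was far above its V array and the other two were near theirs. In the comparisons with V ESF1 was 5th of all 21214 tested clusters with 3α-THP, 26th with F and 134th with P4 by fold change, and the highest of the 47 members in each. The array folds that the paper prints for ESF1 with 3α-THP and F, from other software, are larger than those given here. Its results section states that the arrays led to an expected rise of ESF1 with 3α-THP and with F. By RT-qPCR it describes instead an increase with F combined with 3α-THP or P4, and none with F alone. The paper's discussion differs from this, in that it lists ESF1 as regulated by 3α-THP as well as by both combinations.

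Of the other 46 members none passed the threshold in any of the 6 comparisons. The count of members called was therefore 1 of 47 with 3α-THP, where 0.627% of all tested clusters rose and 0.0519% fell, and 1 of 47 with F, where 0.382% rose and 0.0141% fell. It was 0 of 47 with P4, where 0.0236% of clusters passed in either direction, and 1 of 47 for 3α-THP against P4 (0.222% higher). Against F it was 0 of 47 for both 3α-THP (0.0566%) and P4 (0.0519%). Since so few clusters passed anywhere, a count of 0 among 46 genes is close to the background, and it says nothing particular about the list.

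What the 46 genes add is the width of their intervals. With 3α-THP the 95% interval of the log2 fold change lay within a change of 1.5-fold in either direction in 37 of 46 members, with P4 in 41 and with F in 39. The 9 that reached beyond with 3α-THP were DDX21, NOP58, DKC1, UTP15, UTP20, MPHOSPH10, PNO1, RRS1 and NOP2, and for these the interval does not exclude a change of that size. These widths come from the fit without the replicate number. With the number as a block, added after the values were seen, the interval lay within 1.5-fold in all 46 members with each of the 3 steroids, the widest bounds being 0.58 with 3α-THP and -0.57 with P4. The values of the 46 ran from -0.31 (RRS1) to 0.29 (MPHOSPH10) with 3α-THP, from -0.37 (RRS1) to 0.14 (RRP12) with P4 and from -0.26 (FBL) to 0.24 (MPHOSPH10) with F. At an unadjusted p under 0.05, apart from the size of the fold, the limma fit called ESF1 and no other member with 3α-THP (7.34% of clusters), none with P4 (1.82%), and ESF1 and PES1 with F (4.69%). When the block was added, 8 members were called in this way with 3α-THP (13.4% of clusters), namely ESF1, MPHOSPH10, NOP58 and WDR75 higher and RRS1, FBL, BOP1 and PES1 lower. With P4 it was RRS1 alone, lower (3.80%), and with F 6 members (8.54%), ESF1 higher and FBL, BOP1, PES1, RRS1 and NOP14 lower. Of these ESF1 alone reached 1.5-fold, and among the other members the lowest adjusted p in limma with the block was 0.162 with 3α-THP, 1 with P4 and 0.321 with F.

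The median log2 fold change of all 47 members was 0.03 with 3α-THP, -0.05 with P4 and -0.04 with F. Over all tested clusters it was -0.03, -0.01 and -0.02. Against the median of the other 46, ESF1 stood higher by 1.23 with 3α-THP, 0.36 with P4 and 0.87 with F. The P4 value was 0.09 without P4 array 3 and 0.56 without P4 array 1. Members with a positive value numbered 27 of 47 with 3α-THP, 11 with P4 and 20 with F, where 41.1%, 43.9% and 41.8% of all clusters were positive. The V arrays are shared by these comparisons.

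**Figure D3:**
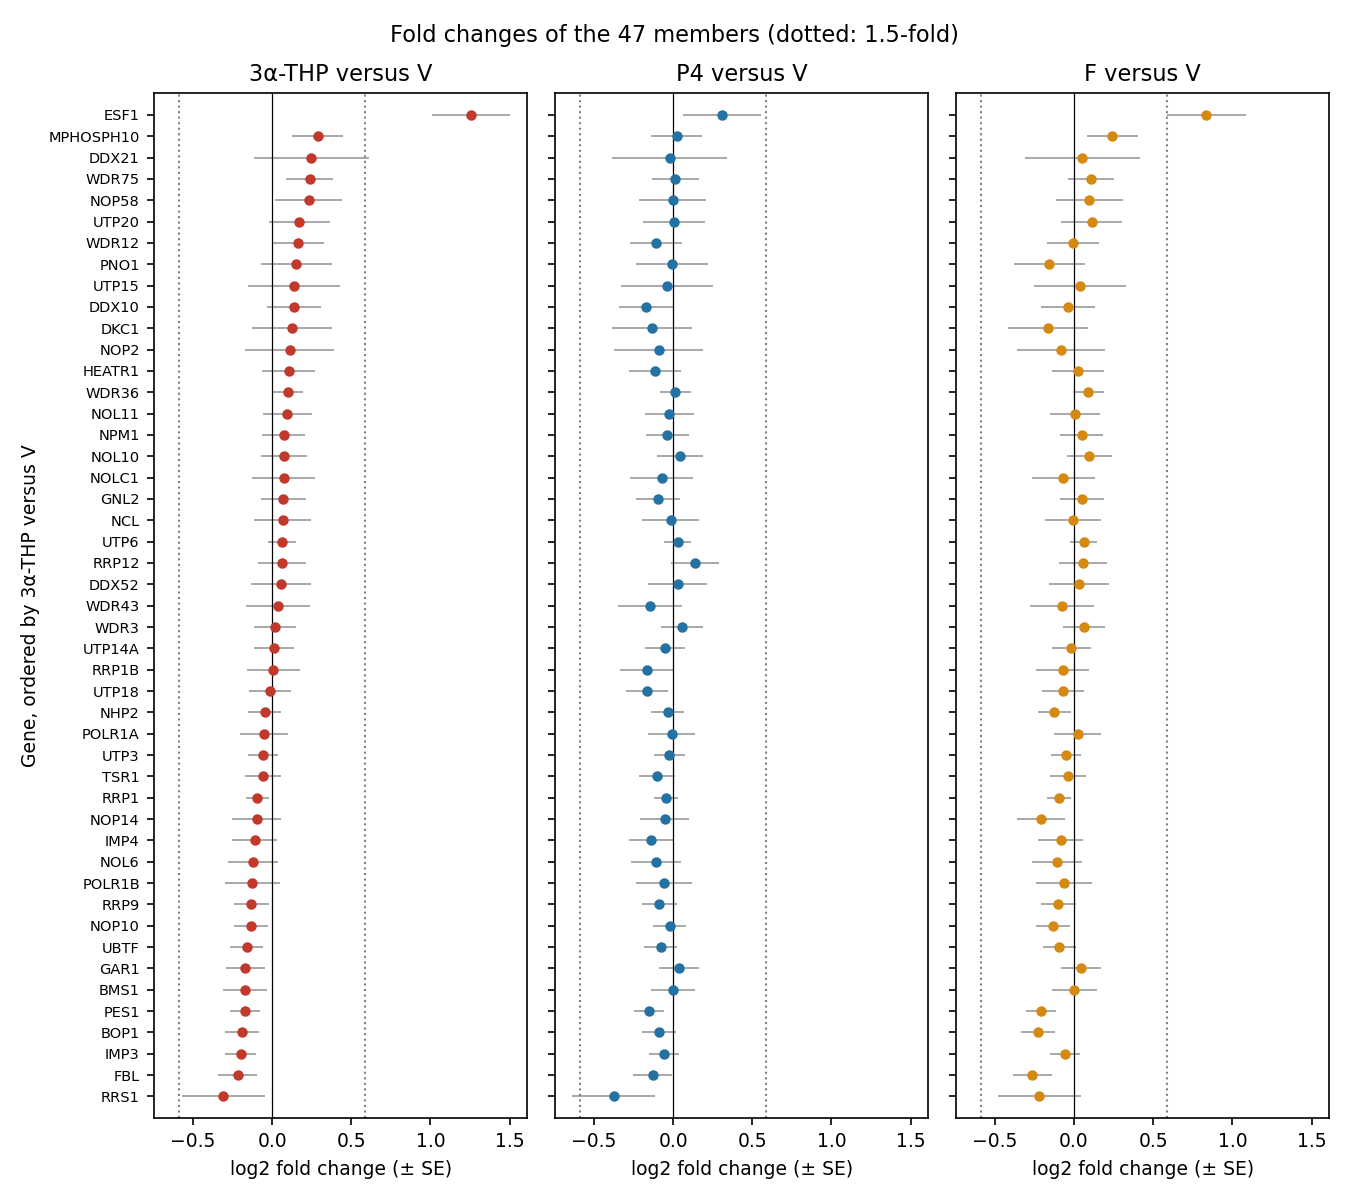
Log2 fold change against V (points) with its SE (lines) for the 47 members with 3α-THP, P4 and F, in the order of the 3α-THP values; dotted lines mark a 1.5-fold change. ESF1 lies past the line at 1.26 with 3α-THP and 0.84 with F, and the others lie between -0.37 and 0.29.

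RNA polymerase I and its helpers came first in the pathway, with 4 members, none of which passed. UBTF, the factor that keeps rRNA genes open for transcription, read 9.10, 9.02 and 8.80 on V, 8.79, 8.89 and 8.76 with 3α-THP, 8.92, 8.98 and 8.78 with P4, and 8.93, 9.01 and 8.69 with F. Each steroid array was below the V array of its number, and the groups overlapped. Its fold change with 3α-THP was -0.16 (SE 0.106; limma, adjusted p = 0.812). POLR1B, the second largest subunit of the polymerase, had -0.12 (SE 0.176), and DDX21, an RNA helicase that helps both transcription and processing, had 0.25 with an SE of 0.364. That SE was the widest among the members, and the 3α-THP arrays of DDX21 read 6.82, 8.44 and 7.49, with array 2 far above the others. POLR1A, the largest subunit, had -0.05 with 3α-THP, -0.01 with P4 and 0.02 with F.

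Of the box C/D proteins, FBL read 8.48, 8.66 and 8.41 on V, 8.27, 8.50 and 8.14 with 3α-THP, 8.38, 8.44 and 8.34 with P4, and 8.13, 8.51 and 8.12 with F. Every steroid array was below the V array of the same number, and the groups still overlapped because array 2 was the highest within each treatment. The fold change was -0.22 with 3α-THP (SE 0.122; limma, adjusted p = 0.757), -0.13 with P4 and -0.26 with F (limma, adjusted p = 0.999). NOP58, a core protein of the same particles, had 0.23 with 3α-THP (SE 0.213), 0.00 with P4 and 0.10 with F.

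The 4 box H/ACA proteins were DKC1, the pseudouridine synthase, and its partners NHP2, GAR1 and NOP10. With 3α-THP GAR1 had -0.17 (SE 0.126; limma, adjusted p = 0.843) and NOP10 -0.13 (SE 0.107), and with F NOP10 had the same -0.13. DKC1 had 0.13 with 3α-THP, -0.13 with P4 and -0.16 with F, with an SE of 0.254 in each. None passed the threshold.

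The multifunctional proteins NCL (nucleolin), NPM1 (nucleophosmin) and NOLC1, which serve as abundant chaperones of the nucleolus, had 0.07 each with 3α-THP, with SEs of 0.178, 0.136 and 0.201. With F NPM1 had 0.05 and NCL -0.01. NPM1 has 4 single-gene clusters, and with 3α-THP they read 0.07 to 0.13, while its processed pseudogenes could share probes with it.

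Among the 26 members of the small subunit processome and other 40S factors, ESF1 passed the threshold with 3α-THP and with F, and the other 25 did not. MPHOSPH10, a processome protein, and IMP3, its partner at the U3 snoRNA, lay at opposite ends of the group. MPHOSPH10 read 7.13, 7.53 and 7.02 on V, 7.20, 7.79 and 7.56 with 3α-THP, 7.09, 7.26 and 7.41 with P4, and 7.32, 7.58 and 7.52 with F. Each 3α-THP array and each F array was above the V array of its number, and the groups overlapped. The fold change was 0.29 with 3α-THP (SE 0.161; limma, adjusted p = 0.753) and 0.24 with F, against 0.02 with P4. IMP3 read 7.58, 7.49 and 7.55 on V and 7.45, 7.22 and 7.36 with 3α-THP, so that these groups did not overlap, as in 7.28% of all clusters in this direction, and the change of -0.20 (SE 0.0963; limma, adjusted p = 0.705) was below the threshold.

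Others of the small subunit group stood out in 1 comparison each. RRP12, an export factor, had the highest value after ESF1 with P4 at 0.14 (SE 0.15), WDR3 had 0.06 and the helicase DDX10 the lowest of the group at -0.17 (SE 0.173). UTP20, a scaffold of the processome, had 0.11 with F (SE 0.195). Each of these values was smaller than its SE in the fit without the replicate number. With the number as a block the SEs were 0.0927 for RRP12, 0.0951 for DDX10 and 0.0989 for UTP20, smaller than the values. The value of WDR3 stayed below its SE. WDR43 had 0.03, -0.15 and -0.08 with 3α-THP, P4 and F, NOP14 -0.10, -0.05 and -0.21, and NOL6 -0.12, -0.11 and -0.11. WDR75, a WD-repeat protein that helps pre-rRNA transcription, had 0.24 with 3α-THP (SE 0.148) and BMS1, the GTPase of the processome, -0.17, and the members of the group not named here lay between these. For BMS1 further clusters shared with its pseudogenes were not used here.

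Of the 8 large subunit (60S) factors none passed. PES1 and BOP1 form, with WDR12, the PeBoW complex that matures the large subunit rRNA. PES1 read 6.87, 7.15 and 6.99 on V, 6.82, 6.90 and 6.78 with 3α-THP, 6.84, 6.96 and 6.76 with P4, and 6.68, 6.89 and 6.82 with F. Each steroid array was below the V array of its number. The change was -0.17 with 3α-THP (SE 0.0949; limma, adjusted p = 0.744), -0.15 with P4 and -0.21 with F (limma, adjusted p = 0.999). BOP1 had -0.19, -0.09 and -0.22 in the same order, and WDR12 0.16, -0.11 and -0.01, so that the 3 partners of the complex did not share a sign with 3α-THP. RRP1B, a paralog of RRP1, was among the lowest with P4 at -0.17 (SE 0.169) and had 0.01 with 3α-THP. A dimmer cluster of BOP1 had -0.26, 0.02 and -0.27.

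RRS1, an assembly factor of the 5S RNP, had the lowest fold change against V of all members with 3α-THP and P4. It read 5.94, 6.40 and 5.96 on V, 5.52, 6.20 and 5.66 with 3α-THP, 5.38, 6.19 and 5.61 with P4, and 5.47, 6.43 and 5.74 with F. Array 2 was the highest in each treatment by more than the treatments differed. The change was -0.31 with 3α-THP and -0.37 with P4 (SE 0.262; limma, adjusted p = 0.872 and 1), and without P4 replicate 2 it passed the threshold against V. RRP1 was lower than V on all arrays with 3α-THP and with F by -0.09 and -0.10 (SE 0.0743), where 7.28% and 5.51% of clusters did not overlap in this direction.

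The other genes of the pathway, 123 measured ones that are not members, gave 0 past the threshold with each of the 3 steroids. Their medians were -0.01 with 3α-THP, -0.05 with P4 and -0.04 with F. At an unadjusted p under 0.05 in limma 5 were higher and 7 lower with 3α-THP (3.25% and 4.09% of all clusters), none with P4, and 2 higher and 4 lower with F (2.58% and 2.11%). EXOSC4, a subunit of the RNA exosome, had -0.30 with 3α-THP (SE 0.0803; limma, adjusted p = 0.406). Its arrays did not overlap, as in 7.28% of all clusters in this direction. POLR1H, a small subunit of RNA polymerase I, read 5.84, 5.84 and 5.92 on V, 5.62, 5.15 and 5.59 with 3α-THP and 5.52, 5.40 and 5.36 with F. Its fold change was -0.41 and -0.44 (SE 0.114; limma, adjusted p = 0.416 and 0.833). ZNHIT6, an assembly factor of box C/D particles, had 0.42 with 3α-THP (SE 0.122; limma, adjusted p = 0.463).

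**Figure D4:**
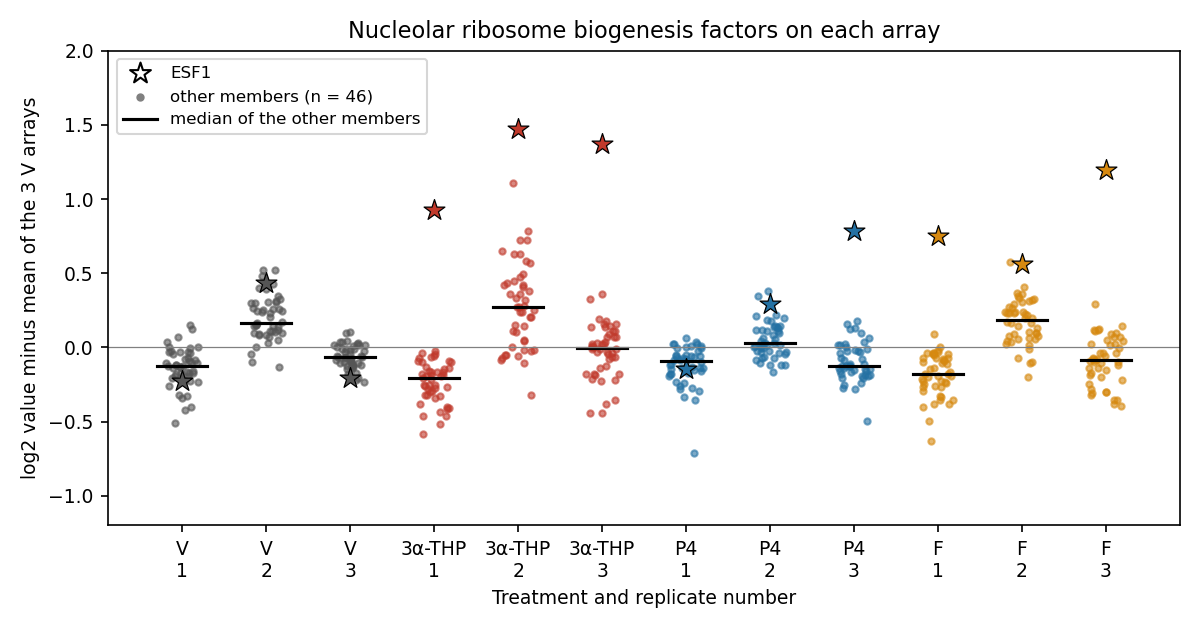
Log2 value minus the mean of the 3 V arrays for ESF1 (stars) and the other 46 members (dots, with their median as a bar) on each of the 12 arrays. The stars lie above nearly all dots on the 3α-THP and F arrays, and the bars are highest on the array numbered 2 of each treatment, from 0.03 with P4 to 0.27 with 3α-THP.

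Where the other members varied was with the replicate number. Of the 46, 43 were above their V mean on V array 2, 36 on 3α-THP array 2, 29 on P4 array 2 and 41 on F array 2. On the arrays numbered 1 it was 5, 0, 7 and 2, and on those numbered 3 it was 11, 23, 10 and 15. The replicate number held a median of 68.9% of the sum of squares of the 46 genes and the treatment 12.1%. For ESF1 it was the other way round, with 12.2% for the number and 71.7% for the treatment, the highest treatment share of the 47. Over all tested clusters the medians were 28.7% and 20.7%, and the number outweighed the treatment in 85.1% of members and in 56.9% of clusters.

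A limma F test over the 3 numbers, in a fit that also held the treatment, was added after these values were seen. It called 29 of 47 members at an adjusted p under 0.05, against 16.1% of all tested clusters. In all 29 number 2 had the highest mean, as in 8.48% of clusters, and it had the highest mean in 44 of 47 members against 32.5% of clusters. The 3 exceptions were ESF1, UTP6 and IMP3. Number 2 was above the mean of the others in 46 members against 43.3% of clusters. In 16 members all 4 arrays numbered 2 lay above the other 8, as in 6.20% of clusters. ESF1 was highest with number 3 and was not called (limma, adjusted p = 0.149).

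The largest differences between number 2 and the mean of the others were in DDX21, NOP2, RRS1 and UTP15. NOP2, an rRNA methyltransferase of the large subunit that is also known as a proliferation antigen, read 7.44, 7.67, 7.13 and 7.27 on the arrays numbered 2 of V, 3α-THP, P4 and F, and 6.54 to 6.98 on the other 8. DDX21 read 7.86, 8.44, 7.68 and 7.91 on the former and 6.82 to 7.49 on the latter. The differences were 0.85 in DDX21 (SE 0.115), 0.66 in NOP2 (SE 0.0917), 0.64 in RRS1 (SE 0.0668) and 0.64 in UTP15, a processome subunit (SE 0.107), each at an adjusted p from 0.000204 to 0.00307 in the F test of limma. By role the median difference was 0.36 for the polymerase I and box C/D members, 0.41 for the multifunctional proteins, 0.25 for the small subunit and 0.24 for the 60S factors, and 0.13 for the box H/ACA proteins.

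**Figure D5:**
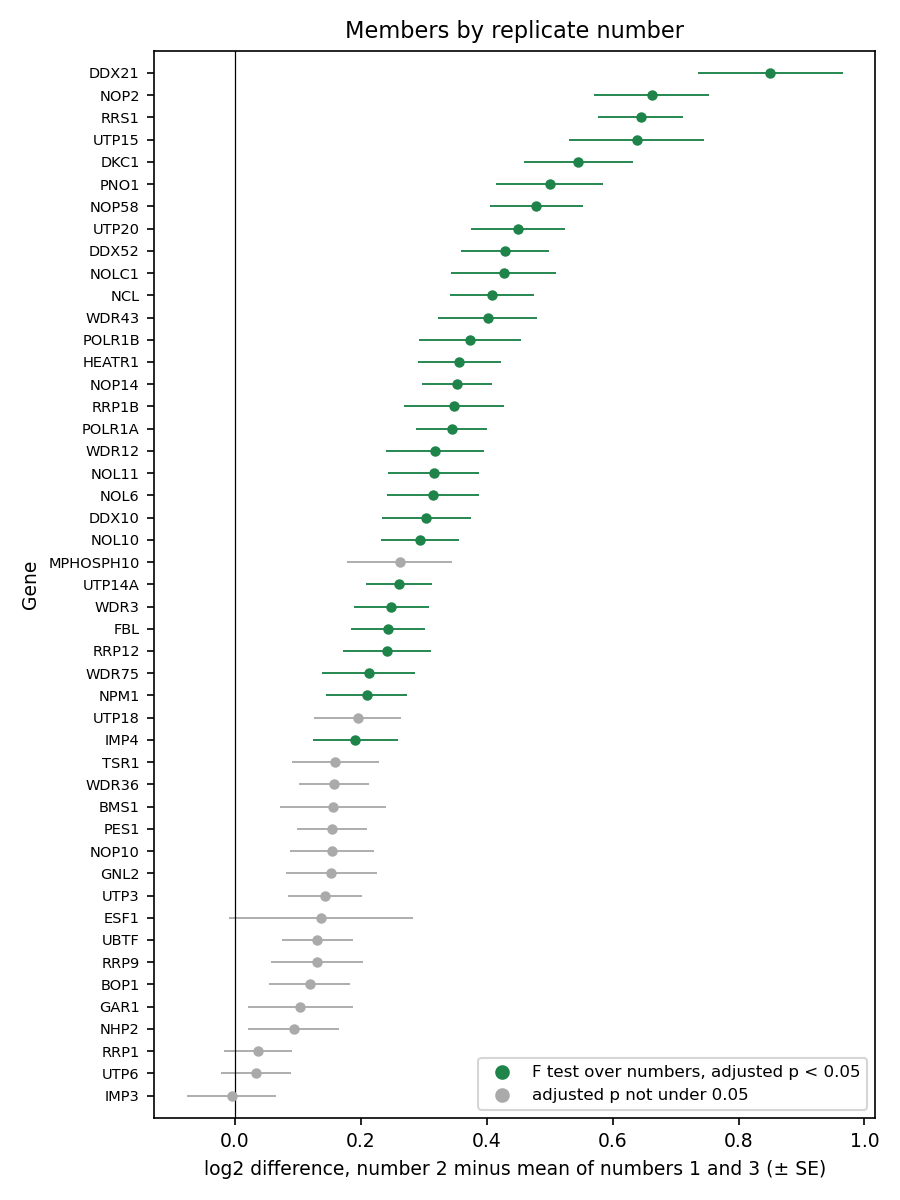
Log2 difference of the arrays numbered 2 from the mean of those numbered 1 and 3 (points, with SE) for the 47 members; green points passed the F test over the 3 numbers at an adjusted p under 0.05. All but IMP3 are positive, up to 0.85 in DDX21, and ESF1 stands low at 0.14.

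Other genes moved with the number in the same arrays. Of the 123 other pathway genes 60 were called by the F test, 56 of them with number 2 highest, among them LTV1, PAK1IP1, NIP7 and URB2 at differences of 0.69, 0.76, 0.63 and 0.67. Of 20 proliferation genes 19 were called, all 20 had every array numbered 2 above the other 8, and their median difference was 0.95. MKI67 read 9.29, 9.72, 9.17 and 9.19 on the arrays numbered 2 and 7.99 to 8.68 on the others. MYC had 0.12 (limma, adjusted p = 0.0821 in the F test). With 3α-THP 18 of the 20 proliferation genes had positive values against V, with a median of 0.14 and 0 past the threshold, while the median over members was 0.03. The part of these genes in the members' values was not tested. Members with an E-box in the window made up 10 of the 22 called by the F test and 7 of the 16 not called, and their median difference was 0.24, against 0.21 in members without one.

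Of 10 markers chosen for U87 cells, VIM, CD44, SPARC and FN1 had means of 11.85 to 13.16, above at least 99.4% of clusters, while the glial gene GFAP stood at 6.17 and the progenitor marker NES at 5.96, near the middle of all clusters. The mean of the 10 was 10.38 to 10.55 on V, 10.32 to 10.50 with 3α-THP, 10.40 to 10.54 with P4 and 10.43 to 10.53 with F. In 4 of the 10, CD44, TNC, SPARC and FN1, every array numbered 2 lay below the other 8, as in 892 of 21214 clusters. The difference was -0.49 in TNC and -0.26 in SPARC (limma, adjusted p = 0.000479 and 0.0115 in the F test over numbers). It was -0.16 in both CD44 and FN1 (limma, adjusted p = 0.09 and 0.102 in the same test). The 4 leukocyte markers had means from 2.95 (PTPRC) to 5.27 (CD14). The 4 epithelial markers ran from 3.64 (EPCAM) to 4.96 (KRT5), and the 4 endothelial markers from 4.07 (PECAM1) to 5.22 (CDH5). Of the neuronal markers SNAP25 was the highest at 8.62, followed by RBFOX3 at 5.98. The mean of the 5 neuronal markers was 5.64 to 5.88 on V, 5.75 to 5.85 with 3α-THP, 5.69 to 5.86 with P4 and 5.84 to 5.96 with F. The array medians were 6.35 to 6.40, and the weights that limma gave the arrays ran from 0.502 on V array 2 and 0.504 on 3α-THP array 2 to 2.86 on V array 3. The part of these differences in the members' values was not tested. In bulk RNA, less RNA per cell and fewer cells with the transcript cannot be told apart.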

How the data were processed

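Total RNA of U87 cells on 12 arrays was analysed. The deposited values are log2 signals per transcript cluster, which the authors summarised in Affymetrix Expression Console 1.4 per the submitters' processing notes. Quantile normalization is named in the methods for the authors' own analysis, and none is named beside the table. Of 33297 clusters, 12083 without a gene name were left out. The 12 arrays entered 1 model in limma 3.58.1 (R 4.3.3) that held a mean for each treatment, with moderated variances (prior degrees of freedom 4.73) and Benjamini-Hochberg adjustment over 21214 clusters. A cluster was called, as in the study's methods, at more than 1.5-fold and a p under 0.05 before adjustment. Errors are SEs of the fit unless an SD is named. The number of arrays limits the precision. The fit was tested on simulated data.

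The members, the gene lists and the comparisons were chosen with earlier results of these data known. Genes were named by rule: ESF1, members past the threshold, in each role the 2 smallest p and the lowest fold change with 3α-THP, the 3 highest and 3 lowest fold changes of each comparison with V, and 3 other pathway genes with the smallest p. Other names were added after their values were seen.

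The design text of the series speaks of independent experiments, without saying whether a number marks one shared by the treatments, and arrays of the same number deviated together from the treatment means: 18 same-number pairs correlated at 0.132 to 0.631, against a median of -0.245 for 36 other pairs. As in the unpaired methods, the values reported leave the number out of the model. Alternatives changed the block, the arrays, the test, the normalization, the clusters, the weights and the fold, and left out each array in turn.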

Additional observations from a re-analysis of the deposited data

How the results depend on the processing

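ESF1 kept its call under all 21 alternatives with 3α-THP (1.14 to 1.47), with F (0.66 to 1.19) and for 3α-THP against P4 (0.72 to 1.18). With the replicate block it was 1.26 with 3α-THP (limma, adjusted p = 0.0731), and the block changed no call among the members. Over the alternatives the adjusted p of ESF1 in limma or the analysis of variance ran from 0.0437 to 0.889 with 3α-THP, being under 0.05 with array weights alone, from 0.0921 to 1 with F and from 0.424 to 1 against P4.

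Without a minimum fold 2 members passed with F, ESF1 and PES1. With the arrays numbered 2 left out, a setting added after the data were seen, ESF1 stood 1.24 above the other members with F in place of 0.87, and 1 member passed for P4 against F, ESF1 at -0.66. Leaving out each array in turn gave 0 to 1 members for 3α-THP against F, with ESF1 at 0.28 to 0.60, 0 to 1 for P4 against F, with ESF1 at -0.76 to -0.30, and 0 to 1 for P4 against V, where RRS1 passed without P4 replicate 2. The causes were not tested.

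The median of the members changed sign in some of these settings, from -0.13 to 0.17 with 3α-THP, by less than the SD of 0.176 between replicates. Copies of RNA per cell are not given by array signals, and probes of pseudogenes and of overlapping genes cannot be told apart from those of a member.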

Other observations

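The members' fold changes were set beside the length of their genes, taken as the span on GRCh38.p14 in RefSeq. ESF1 spans 70.6 kb (chr20:13714325-13784919, minus strand), the 5th longest of the 47, whose median is 26.6 kb. Across the 47 genes, which share the V arrays and are not independent replicates, Spearman's rho between span and log2 fold change was 0.43 with 3α-THP, 0.23 with P4 and 0.54 with F. Without ESF1 it was 0.40, 0.19 and 0.51, and for the difference of the arrays numbered 2 it was 0.16 with ESF1. The 4 shortest genes, IMP3 (1.13 kb), NOP10 (1.42 kb), RRS1 (1.72 kb) and UTP3 (2.02 kb), all had negative values with 3α-THP, as 58.9% of all tested clusters did. Long genes went both ways: DDX10, the longest at 276 kb, had 0.14 with 3α-THP, -0.17 with P4 and -0.04 with F, while POLR1A (85.7 kb) had -0.05 and BMS1 (52.1 kb) -0.17 with 3α-THP. The part of probe position or length in these values was not tested.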
